A study of Mus musculus with 217 samples.

Results

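The genes described here encode the nuclear subunits and assembly factors of the mitochondrial respiratory chain and ATP synthase, read in ribosome-bound RNA of brain, lung and heart ECs of the mouse before and after lipopolysaccharide (LPS). The rule used the symbol and no measured value, but it was set with earlier results of these data known. It took protein-coding genes whose names begin with Nduf, Uqcr, Cox4 to Cox8 or Atp5, together with Sdha, Sdhb, Sdhc and Sdhd. This gave 93 of the 52550 genes counted, with 44 in complex I, 4 in complex II, 8 in complex III, 20 in complex IV and 17 in complex V. Ndufa4 and Ndufa4l2 were placed in complex IV. In every fit 89 of the 93 passed the filter on low counts. Over all libraries used, Ndufs3 had 0 counts, Uqcrc1 had 8, Cox7b2 had 82 and Cox8c had 5, and these 4 were not tested. A read that fitted several genes or places was not counted by the authors' tool, and what part this has in the low counts was not tested. Exons of 29 members share bases with an exon of a gene on the opposite strand, and whether the counting used strand is not given in the sources used here.

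Complexes I and II pass electrons from NADH and succinate to ubiquinone, complex III passes them on to cytochrome c, and complex IV, cytochrome c oxidase, hands them to oxygen. Complexes I, III and IV pump protons, and complex V, the ATP synthase, uses the resulting gradient to make ATP. Some subunits are encoded by mitochondrial DNA, while those described here are made in the cytosol and imported. Several subunits of complex IV come as paired isoforms. Cox6a2, Cox7a1 and Cox8b are known as the heart and skeletal muscle forms, Cox6a1, Cox7a2 and Cox8a as the widely expressed ones, and Cox4i2 as an alternative form of Cox4i1 known from lung and from hypoxia. ECs are regarded as drawing much of their ATP from glycolysis.

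RiboTagEC mice were adult C57BL/6J animals of the genotype Cdh5CreERT2/+; Rpl22HA/+, in which a Cre driven by the VE-cadherin promoter puts an HA tag on the ribosomal protein Rpl22 in ECs. All animals, the controls included, had been given 5 mg of tamoxifen by gavage 4 times at an age of 4 to 6 weeks. Treated mice received 10 mg per kg of LPS into the peritoneum and were studied 6, 24, 48, 72 or 168 hr later, and the study's methods describe the 0 hr controls as injected with PBS. Tagged ribosomes were pulled down from homogenate of the whole organ. The 80 libraries used held 5, 5, 4, 6, 4 and 4 of brain at 0, 6, 24, 48, 72 and 168 hr, 4, 4, 2, 6, 4 and 4 of lung, and 5, 5, 4, 6, 4 and 4 of heart. By the names of the deposited files, libraries of different organs can come from the same mouse, and in the tests reported they were taken as separate. The labels do not say that libraries of a group came from separate mice, so p-values measure the spread between these libraries, which may be partly technical. In bulk RNA, fewer cells of a type and less RNA per cell cannot be told apart.

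Counts on genes ran from 7226796 to 32891759 per brain library, from 8136031 to 33050750 per heart library and from 284457 to 43417945 per lung library. The lung libraries stood apart in the share of reads that fell on genes, which was 3.4 to 61.0% there, 53.4 to 70.0% in brain and 43.7 to 68.9% in heart. All 13 endothelial markers were detected in each organ at 0 hr, and their summed level was 2587 to 4982 CPM (counts scaled to a common library size by TMM) in brain, 14436 to 23283 in lung and 11593 to 12871 in heart. RNA of other cell types was present as well. At 0 hr the summed level was 1969 to 8283 CPM for 12 neuron markers in brain, 6899 to 14026 for 9 lung epithelium markers in lung and 6324 to 11494 for 18 cardiomyocyte markers in heart. The libraries came in library series 1, 2 and 4, a number read from the names of the deposited files and kept as a term in the fits. Every 0 hr library was of series 1 or 2. Series 4 occurred only at 24, 48, 72 and 168 hr, so its libraries have no 0 hr library of their own series to be set against.

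At 0 hr all members together took 12039 ± 2912 CPM (SD, n = 5) in brain ECs, 14125 ± 3559 (n = 4) in lung ECs and 11484 ± 1993 (n = 5) in heart ECs, and the ranges of the libraries overlapped. Per kilobase of the principal transcript, Cox4i1, the main form of a regulatory subunit of cytochrome c oxidase, had the highest mean level of all members in brain (684 ± 205 CPM per kb) and in heart (735 ± 141 CPM per kb), and it was at 740.0 ± 118 CPM per kb in lung. Atp5g3, a gene for the membrane ring of ATP synthase, was at 2916 ± 1633 CPM per kb in lung, 656 ± 200.0 in brain and 561 ± 141 in heart. Atp5b, the catalytic beta subunit of ATP synthase, was at 651 ± 67.5 CPM per kb in heart, 380.0 ± 50.2 in brain and 60.8 ± 73.6 in lung. Each widely expressed isoform exceeded its muscle partner in every organ on this scale, with Cox6a1 at 252 ± 49.5 and Cox6a2 at 136 ± 63 CPM per kb in heart, and at 353 ± 153 and 5.13 ± 3.82 in brain.

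Promoter sequence is printed for 5 members on which the results turn: the muscle isoforms Cox7a1 and Cox8b, the widely expressed Cox6a1, and Ndufa5 and Atp5k, which separated the lung libraries. Each is the 250 bases before the start site on the gene's strand, from RefSeq (GRCm38.p6, the assembly behind mm10), 5′ to 3′, with capitals for matches to the motifs named after them.
Cox7a1: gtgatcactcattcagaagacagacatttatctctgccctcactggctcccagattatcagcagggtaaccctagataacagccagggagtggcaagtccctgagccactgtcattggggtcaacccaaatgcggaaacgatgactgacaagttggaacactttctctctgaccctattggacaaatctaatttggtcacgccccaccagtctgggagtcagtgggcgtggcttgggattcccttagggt
Cox8b: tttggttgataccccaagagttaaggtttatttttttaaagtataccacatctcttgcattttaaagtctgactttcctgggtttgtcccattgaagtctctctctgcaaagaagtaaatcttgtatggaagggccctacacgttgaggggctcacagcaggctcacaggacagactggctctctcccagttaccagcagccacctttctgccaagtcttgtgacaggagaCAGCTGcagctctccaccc
Cox6a1: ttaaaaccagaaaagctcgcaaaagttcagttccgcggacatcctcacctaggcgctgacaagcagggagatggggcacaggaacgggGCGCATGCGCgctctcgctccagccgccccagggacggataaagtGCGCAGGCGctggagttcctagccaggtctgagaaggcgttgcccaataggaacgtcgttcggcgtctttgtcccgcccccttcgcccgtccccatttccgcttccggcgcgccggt
Ndufa5: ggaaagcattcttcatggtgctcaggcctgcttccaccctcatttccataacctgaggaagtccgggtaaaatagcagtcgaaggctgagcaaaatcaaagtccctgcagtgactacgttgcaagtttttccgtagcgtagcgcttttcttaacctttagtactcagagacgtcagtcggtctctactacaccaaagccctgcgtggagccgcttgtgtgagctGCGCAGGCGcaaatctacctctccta
Atp5k: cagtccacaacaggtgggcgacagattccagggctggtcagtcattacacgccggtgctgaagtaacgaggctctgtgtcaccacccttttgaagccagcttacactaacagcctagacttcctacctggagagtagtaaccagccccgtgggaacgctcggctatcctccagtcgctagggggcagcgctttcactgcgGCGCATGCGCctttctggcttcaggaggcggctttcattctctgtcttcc
These windows lie at chr7:30183921-30184170 (+) for Cox7a1, chr7:140900447-140900696 (-) for Cox8b, chr5:115348959-115349208 (-) for Cox6a1, chr6:24527691-24527940 (-) for Ndufa5 and chr5:108434400-108434649 (-) for Atp5k. For 74 members with an entry in the RefSeq table, both strands were searched from 250 bases before to 50 after the start. The letters GCGCANGCG of NRF1, a factor known for driving nuclear genes of mitochondria, were found in 22 members (29.7%) and in 7.03% of 27025 genes. AAGATGGCG, known from YY1, was found in 8 members (10.8%) and in 1.64% of genes, and TCAAGGTCA, known from ERR receptors, in 2 members (2.7%) and in 0.466% of genes. TATAAA was found in 7 members (9.46%) and in 15.7% of genes, and the E-box letters CAGCTG in 6 (8.11%) and in 18.3% of genes. The MEF2 motif was found in 0 of these 74 members and in 3.7% of genes. Cox6a2, Cox4i1 and Cox4i2 had no entry and were not searched for any motif. The NRF1 letters occur in the printed windows of Cox6a1, Ndufa5 and Atp5k, the E-box letters in that of Cox8b, and none of the motifs in that of Cox7a1. A match is a description of letters and not a bound site.

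At baseline, the muscle isoforms of cytochrome c oxidase were high in heart ECs. Cox6a2 was at 60.6, 97.2, 77, 62.9 and 165 CPM in the 5 heart libraries, at 1.09, 1.18, 3.45, 7.39 and 4.35 in brain and at 2.36, 7.21, 2.58 and 1.87 in lung. Every heart library lay above every library of the other organs, and the log2 difference of heart from the mean of brain and lung was 4.91 ± 0.36 (SE, adjusted p = 6.4e-08, edgeR quasi-likelihood test with Benjamini-Hochberg adjustment, as for all tests below). Cox8b was at 35.6, 56.7, 39.9, 24.5 and 68.4 CPM in heart, at 0.474 to 1.78 in brain and at 0.748 to 3.74 in lung (4.89 ± 0.37, adjusted p = 8.5e-08). Cox7a1 was at 46.1, 73.3, 63.1, 39.7 and 114 CPM in heart, at 6.55 to 15.5 in brain and at 1.65 to 6.39 in lung (3.54 ± 0.33, adjusted p = 6.0e-07). Neither gene's heart libraries overlapped those of the other organs. Over the means of the 18 organ and time groups, the genes whose level was most like that of Cox6a2 were Cox8b (Pearson r = 0.978), Hfe2 (0.973) and Hrc (0.973), and those most like Cox7a1 were Fabp3 (0.928) and Casq2 (0.924). All 18 cardiomyocyte markers were also higher in the heart libraries, and their part in these levels was not tested.

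**Figure D1:**
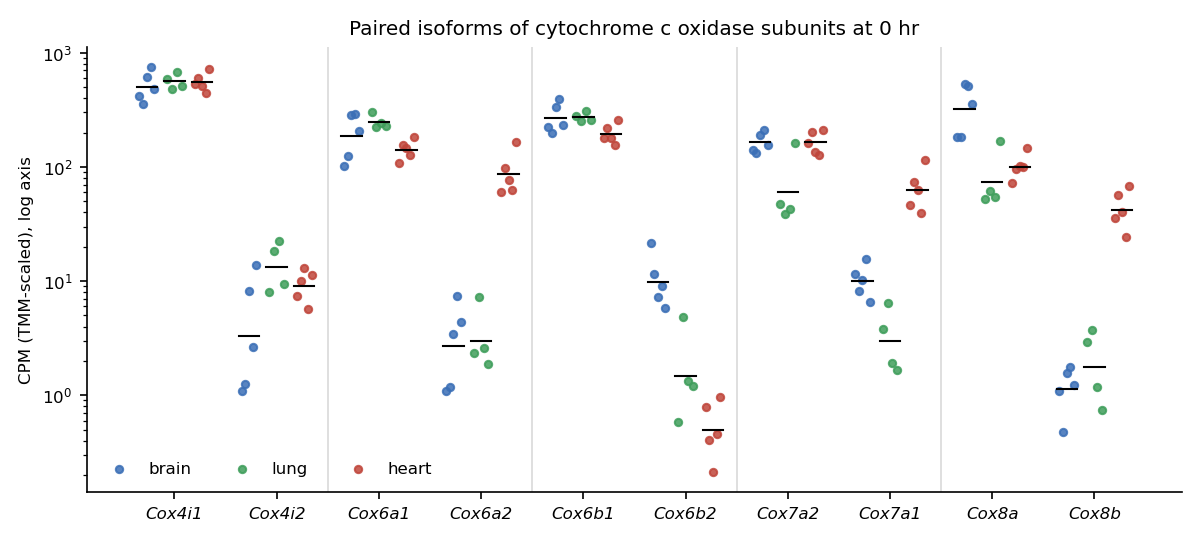
CPM at 0 hr (vertical log axis) of isoforms of complex IV subunits, with a point per library (5 brain, 4 lung, 5 heart) and a bar for the geometric mean of each organ. Cox6a2, Cox7a1 and Cox8b lay higher in every heart library than in any brain or lung library, while Cox4i1 overlapped between the organs.

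The widely expressed partners differed less. Cox4i1 was at 443 to 725 CPM in heart, 358 to 746 in brain and 480.0 to 684 in lung, and Cox6b1, a subunit on the intermembrane side, at 156 to 256, 197 to 390.0 and 251 to 310.0 CPM. The organs overlapped for both genes. Cox6a1, the partner of Cox6a2, was called higher in lung (log2 difference 0.68) and lower in heart (-0.60). Cox7a2, the partner of Cox7a1, was called lower in lung (-1.28). The Cox6a1 calls were lost in 5 and 11 of 23 alternatives. That of Cox7a2 was lost with only libraries that had at least 50% of reads on genes. In brain ECs Cox6b2, known from testis, was at 21.4, 11.5, 7.21, 8.99 and 5.79 CPM, against 0.212 to 0.968 in heart and 0.589 to 4.89 in lung, with no overlap (3.22 ± 0.48, adjusted p = 3.7e-05). Cox8a was at 184, 183, 531, 511 and 357 CPM in brain, 51.9 to 167 in lung and 71.7 to 146 in heart (1.76 ± 0.34, adjusted p = 3.6e-04), again with no overlap. Cox4i2 was at 1.09, 1.26, 8.2, 2.65 and 13.7 CPM in brain, 7.95, 18.2, 22.4 and 9.5 in lung and 5.73 to 12.9 in heart, and although the ranges overlapped it was lower in brain (-1.52 ± 0.46, adjusted p = 0.011) and higher in lung (1.17 ± 0.43, adjusted p = 0.028). The 9 pericyte and smooth muscle markers summed to 168, 200, 1423, 235 and 2601 CPM in the same brain libraries, 329 to 539 in lung and 156 to 278 in heart. Their part in the Cox4i2 values was not tested. With no term for library series neither Cox4i2 difference passed the threshold (-1.18, adjusted p = 0.068 in brain and 1.06, adjusted p = 0.087 in lung). The lung difference was also lost without lung 0 hr replicate 3 (1.11, adjusted p = 0.08) and with only libraries that had at least 50% of reads on genes (1.28, adjusted p = 0.28).

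In brain ECs 29 of the 89 members (32.6%) were higher and 9 (10.1%) lower than in the mean of the other organs, where 35.1% and 23.4% of all genes tested were. The median log2 difference was 0.32 for the members and 0.22 for all genes. Complex I assembly factors stood at 5 higher and 1 lower of 8, and Ndufs8, an iron-sulfur subunit of complex I, differed by 1.84 ± 0.45 (adjusted p = 0.0025). Per kilobase the mean of Ndufs8 was 128 CPM in brain, 80.9 in heart and 18.2 in lung, so brain lay further from lung than from heart. With only libraries that had at least 50% of reads on genes, its log2 difference was 0.81. In heart ECs 21 (23.6%) were higher and 20 (22.5%) lower, against 27.7% and 30.5% of all genes. Besides the muscle isoforms, Atp5b was higher in heart at 1241, 1266, 1245, 1058 and 1423 CPM, against 632 to 858 in brain. Its log2 difference from the mean of brain and lung was 2.28 ± 0.40 (adjusted p = 2.4e-04). Per kilobase its mean was 651 CPM in heart, 380 in brain and 60.8 in lung, so heart lay further from lung than from brain. With only libraries that had at least 50% of reads on genes, the log2 difference was 1.46. Of the 9 core subunits tested (Ndufs1, Ndufv1, Sdha, Sdhb, Uqcrfs1, Cox5a, Cox5b, Atp5a1 and Atp5b), 6 were higher and none lower in heart, 4 were higher and none lower in brain, and 1 was higher and 8 lower in lung. In lung ECs 22 members (24.7%) were higher and 41 (46.1%) lower, against 28% and 34.4% of all genes, with a median of -0.38 for the members and -0.35 for all genes. All members called kept their direction within library series 1 and within series 2. The calls were made on these same libraries, so this is a description and no independent check.

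The differences of lung ran in opposite directions within the same complex. In complex V, Atp5k, a small membrane subunit, was higher (3.11 ± 0.42, adjusted p = 1.7e-05), while the gamma subunit of the rotor, Atp5c1 (-3.32 ± 0.52, adjusted p = 7.2e-05), and Atp5b (-3.24 ± 0.54, adjusted p = 1.1e-04) were lower. In complex I the subunits Ndufb7 (2.86 ± 0.37, adjusted p = 1.1e-05) and Ndufa5 (2.64 ± 0.37, adjusted p = 2.5e-05) and the assembly factor Ndufaf8 (2.79 ± 0.36, adjusted p = 1.1e-05) were higher, and Ndufs8 (-2.70 ± 0.58, adjusted p = 9.2e-04) was lower. These means cover a split between the lung libraries. Replicates 1 to 3 had 18.8, 19.2 and 28.6% of reads on genes and replicate 4 had 56.2%. Ndufa5 was at 859, 990.0, 1111 and 120.0 CPM in replicates 1 to 4, against 77.7 to 321 in brain and 65.9 to 144 in heart. Atp5k was at 590.0, 978, 460.0 and 49.2 CPM, against 46.2 to 131 in brain and 31.9 to 58.6 in heart. Atp5b was at 36.8, 66.5, 35.7 and 327 CPM, against 632 to 858 in brain and 1058 to 1423 in heart. Replicate 4 thus lay within the brain and heart values for Ndufa5 and Atp5k, and below them but nearer for Atp5b.

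In a comparison of the 11 libraries with at least 50% of reads on genes, chosen after the data were seen, 14 members were called in lung (1 higher, 13 lower), 12 of them in common with the 63 above. It leaves 1 lung library, which is assumed to vary like those of the other organs. Atp5k (0.04, adjusted p = 1), Ndufb7 (0.38, adjusted p = 0.52) and Ndufaf8 (0.55, adjusted p = 0.33) no longer passed the threshold. Atp5b (-1.61, adjusted p = 0.0024), Atp5c1 (-1.65, adjusted p = 0.0019) and Cox7a1 (-3.85, adjusted p = 0.0022) did. The same comparison called 20 members in brain, 17 of them in common with the 38 above, and 26 in heart, 22 of them in common with the 41. Of the 9 core subunits it called 1 in lung (Atp5b, lower), none in brain and 3 in heart (Sdha, Atp5a1 and Atp5b, all higher). The members called higher in lung on all libraries had a median transcript length of 652 bases and those called lower one of 1249, against 861 for all tested. After LPS, the 3 lung libraries at 168 hr with 57.1, 50.5 and 61.0% of reads on genes had Ndufa5 at 185, 198 and 189 CPM, whereas the 4 at 72 hr, with 12.5 to 31.4%, had it at 565, 929, 1712 and 1083. The part of the share of reads on genes and of transcript length in the lung values was not tested.

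**Figure D2:**
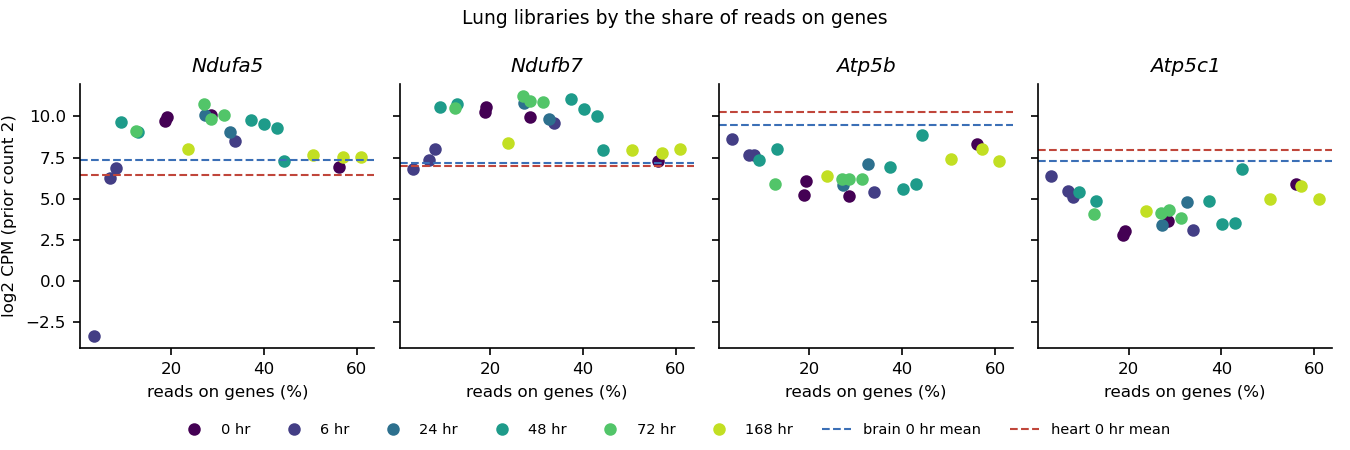
Log2 CPM (prior count 2) of Ndufa5, Ndufb7, Atp5b and Atp5c1 in the 24 lung libraries against the percentage of reads on genes, with a point per library coloured by time after LPS and dashed lines for the brain and heart means at 0 hr. At 0 hr the library with 56.2% of reads on genes was lower in Ndufa5 and Ndufb7 and higher in Atp5b and Atp5c1 than the 3 with 18.8 to 28.6%.

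After LPS, heart ECs at 6 hr had the most members called of any organ and time. Of 89 members, 26 (29.2%) rose and 5 (5.62%) fell, against 22.4% and 20.3% of all genes, with a median log2 fold change of 0.41 for the members and -0.05 for all genes. The risers comprised 13 of 43 tested in complex I, 2 of 4 in complex II, 3 of 7 in complex III, 3 of 18 in complex IV and 5 of 17 in complex V. Ndufa5, an accessory subunit of complex I, was at 72.4, 95.7, 80.0, 65.9 and 144 CPM at 0 hr and at 502, 171, 492, 191 and 70.2 at 6 hr (1.42 ± 0.40, adjusted p = 0.0074). Cox5a, a subunit of cytochrome c oxidase, was at 131, 159, 149, 112 and 207 CPM at 0 hr and at 746, 308, 731, 334 and 122 at 6 hr (1.37 ± 0.34, adjusted p = 0.0031). Ndufaf8, an assembly factor of complex I, was at 7.34, 12.8, 15, 12.6 and 20.0 CPM at 0 hr and at 74.6, 35.2, 81, 36.2 and 16.4 at 6 hr (1.56 ± 0.30, adjusted p = 4.2e-04). In all 3 genes the first 4 libraries at 6 hr lay above every 0 hr library and the fifth lay within their range.

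Cox4i1 rose as well, from 443 to 725 CPM to 1727, 914, 2052, 912 and 459 (0.99 ± 0.31, adjusted p = 0.015), and so did Cox6a2, from 60.6 to 165 CPM to 258, 123, 412, 142 and 76.8 (0.98 ± 0.38, adjusted p = 0.043), each with overlapping ranges. Cox5a was the only one of the 9 core subunits called, and Atp5b, at 594, 1169, 1342, 919 and 1083 CPM, gave -0.28 ± 0.21, adjusted p = 0.29. The members that fell were Cox4i2 (-1.32 ± 0.42, adjusted p = 0.015), Cox6b2 (-1.80 ± 0.70, adjusted p = 0.04), Ndufs8 (-0.55 ± 0.17, adjusted p = 0.013) and the assembly factors Ndufaf3 (-0.72 ± 0.23, adjusted p = 0.016) and Ndufaf7 (-0.49 ± 0.17, adjusted p = 0.022). Cox6b2 was under 1 CPM in all heart libraries at 0 and 6 hr.

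The rise differed between library series. The first 4 libraries at 6 hr belong to series 2 and the fifth to series 1. Within series 2, with 4 libraries against 3, the members' median difference was 0.63 and all 31 called members kept their direction. Within series 1, with 1 library against 2, it was -0.25 and 10 of 31 kept it. The 31 were called on these same libraries, most of them at 6 hr of series 2, so the direction kept within series 2 is no independent check. Series 2 fitted alone, an alternative chosen after the data were seen, called 42 members, 28 of them in common, and series 1 alone called 0. Leaving out the fifth 6 hr library gave 48 calls. Leaving out heart 0 hr replicate 4, 6 hr replicate 1 or 6 hr replicate 3 gave 15 each, and leaving out 0 hr replicate 3 gave 17. The 5 libraries at 6 hr had 50.5, 53.7, 43.7, 54.8 and 67.7% of reads on genes, against 60.5 to 65.7% at 0 hr, and with only libraries of at least 50%, which removes the third, 15 members were called (11 higher, 4 lower), all in common with the 31. There Ndufaf8 (1.35, adjusted p = 0.0018), Ndufa5 (1.16, adjusted p = 0.028) and Cox5a (1.15, adjusted p = 0.013) stayed past the threshold, and Cox4i1 (0.74, adjusted p = 0.061) and Cox6a2 (0.59, adjusted p = 0.2) did not.

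Cell type markers moved between the same libraries. The 18 cardiomyocyte markers summed to 17506, 8466, 16342, 8319 and 8215 CPM in the 5 libraries at 6 hr, against 6324 to 11494 at 0 hr, and 3 of 18 rose. The 13 endothelial markers summed to 6592, 7766, 6768, 8403 and 12783 CPM, against 11593 to 12871 at 0 hr, with 8 lower and 1 higher. The libraries with the highest cardiomyocyte sums, the first and the third, were those with the highest Ndufa5, Cox5a and Ndufaf8. Across the 89 members the log2 fold change at 6 hr had a Spearman rho of -0.36 with transcript length, a description over genes of the same libraries. The part of heart muscle RNA, of transcript length and of the share of reads on genes in the 6 hr values was not tested.

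Cox4i2 was lower in heart ECs from 6 to 48 hr. It was at 7.34, 9.98, 12.9, 5.73 and 11.2 CPM at 0 hr, 3.14, 2.55, 2.52, 3.93 and 7.17 at 6 hr, 2.33, 2.78, 2.17 and 2.72 at 24 hr and 5.7, 4.55, 1.28, 1.84, 0.77 and 3.42 at 48 hr. No library at 24 or 48 hr reached the lowest at 0 hr, and the log2 fold changes were -1.65 ± 0.50, adjusted p = 0.03 and -1.55 ± 0.41, adjusted p = 0.034. It was the only member called at 24 hr, where 16.2% of all genes were called, and at 48 hr, where 4.19% were, and 6 and 3 members had an unadjusted p under 0.05. At 72 hr (-1.22 ± 0.45, adjusted p = 0.5) and 168 hr (-0.35 ± 0.49, adjusted p = 0.99) it did not pass the threshold, and edgeR called 0 members, against 0.275% and 0% of all genes, with 1 and 0 at an unadjusted p under 0.05. The call was lost at 24 hr without 0 hr replicate 2, 3 or 5 or without 24 hr replicate 1 or 2 (-1.60 to -1.53, adjusted p = 0.052 to 0.13), and at 48 hr without 0 hr replicate 1, 2, 3 or 5 or without 48 hr replicate 3, 4 or 6 (-1.60 to -1.38, adjusted p = 0.05 to 0.091, the lowest lying just above the threshold). Markers of other cells changed at the same times. The 18 cardiomyocyte markers summed to 4672 to 7735 CPM at 24 hr and 4780 to 9771 at 48 hr, against 6324 to 11494 at 0 hr. The medians were 5956, 5254 and 7528 CPM. Actc1, cardiac actin, was lower at both times (-1.94 ± 0.41, adjusted p = 0.004 and -1.80 ± 0.34, adjusted p = 0.0027). It is named as the called marker of this list with the lowest log2 fold change. The 9 pericyte and smooth muscle markers summed to 156 to 278 CPM at 0 hr, 129 to 293 at 6 hr, 114 to 145 at 24 hr and 99 to 166 at 48 hr, with 0 higher and 1 lower of 9 tested at 6 hr, 1 higher and 4 lower of 9 tested at 24 hr, between Myh11 of smooth muscle (-1.75 ± 0.49, adjusted p = 0.021) and Kcnj8 of pericytes (1.22 ± 0.41, adjusted p = 0.042), and none called at 48 hr. The 5 fibroblast markers summed to 214 to 484 CPM at 0 hr, 503 to 1008 at 24 hr and 766 to 1514 at 48 hr. Dcn, named as the called marker with the largest rise, gave 1.48 ± 0.38, adjusted p = 0.014 and 1.94 ± 0.34, adjusted p = 0.0017. The 13 endothelial markers summed to 10538 to 14264 and 10888 to 14470 CPM at 24 and 48 hr, and of 6 neutrophil markers tested 5 were higher at each time. The part of these cells in the Cox4i2 values was not tested.

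**Figure D3:**
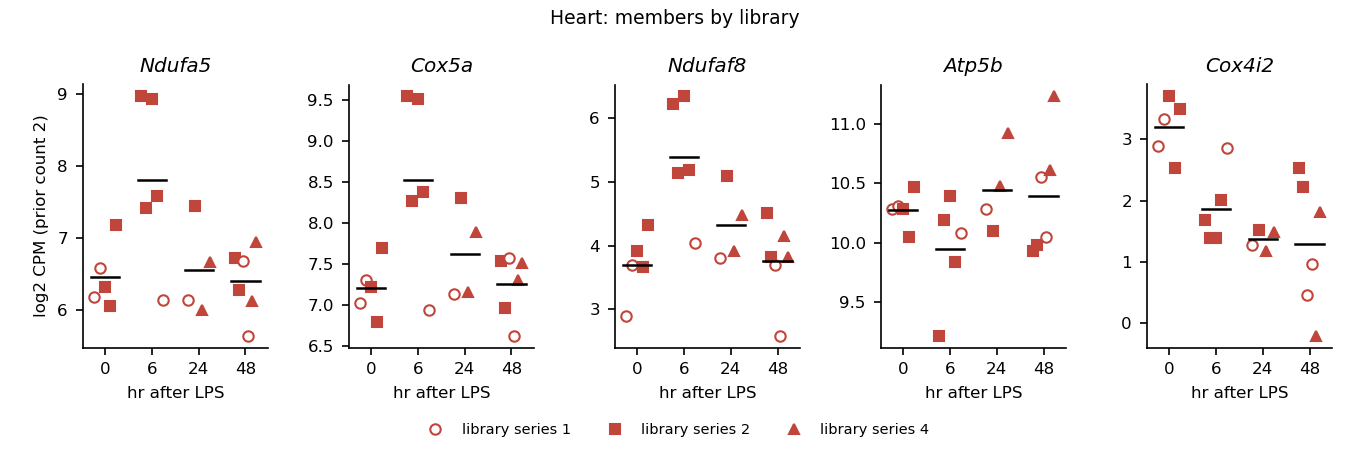
Log2 CPM (prior count 2) of Ndufa5, Cox5a, Ndufaf8, Atp5b and Cox4i2 in heart libraries at 0, 6, 24 and 48 hr, with a point per library, its shape giving the library series, and a bar for the mean. At 6 hr the 4 libraries of series 2 lay above the series 1 library in Ndufa5, Cox5a and Ndufaf8, and Cox4i2 lay below its 0 hr libraries at 24 and 48 hr.

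In brain ECs the members called after LPS were all lower. At 6 hr edgeR called 0 of 89 (8 at an unadjusted p under 0.05), against 6.44% of all genes. At 24 hr 6 (6.74%) fell and none rose, against 4.66% of all genes lower. These were Cox7a1 (-2.36 ± 0.47, adjusted p = 0.0026), the complex I subunits Ndufa13 (-0.70 ± 0.22, adjusted p = 0.04) and Ndufv3 (-0.68 ± 0.20, adjusted p = 0.029), the assembly factor Ndufaf3 (-0.68 ± 0.21, adjusted p = 0.035), Uqcr11 of complex III (-0.64 ± 0.19, adjusted p = 0.034) and Atp5k (-0.61 ± 0.20, adjusted p = 0.044). The count at 24 hr was 1 without brain 0 hr replicate 1 or 4 or without 24 hr replicate 1, 4 or 5, and 2 without 0 hr replicate 2 or 24 hr replicate 2. At 48 hr 21 (23.6%) fell and none rose, against 6.12% of all genes lower, with a median of -0.28 for the members and 0.02 for all genes. They comprised 10 of 43 tested in complex I, 0 of 4 in complex II, 1 of 7 in complex III, 5 of 18 in complex IV and 5 of 17 in complex V, and none of the 9 core subunits. At 72 and 168 hr edgeR called 0 members (2 at an unadjusted p under 0.05 at each), against 3.53% and 0% of all genes.

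Isoforms of complex IV had the lowest log2 fold changes. Cox7a1 was at 11.6, 8.14, 10.3, 15.5 and 6.55 CPM at 0 hr, at 1.03, 2.55, 1.19 and 1.62 at 24 hr and at 2.36, 3.17, 0.643, 2.78, 0.618 and 0.624 at 48 hr. No library at 24 or 48 hr reached the lowest at 0 hr (-2.47 ± 0.38, adjusted p = 2.8e-04 at 48 hr). At 168 hr it was at 5.08, 10.7, 12.2 and 10.0 CPM. Cox8b was at 1.09, 0.474, 1.58, 1.78 and 1.24 CPM at 0 hr and at 0.319, 0.278, 0, 0, 0.169 and 0.0814 at 48 hr (-2.66 ± 0.57, adjusted p = 0.0044), without overlap but at a level close to the limit of counting. Cox6a2 (-1.51 ± 0.42, adjusted p = 0.019) and Cox6b2 (-1.58 ± 0.42, adjusted p = 0.017), with means of 0.717 and 3.57 CPM at 48 hr against 3.49 and 11 at 0 hr, fell with overlapping ranges.

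The other 17 members that fell at 48 hr changed by log2 values from -0.98 to -0.48. Ndufa13, also known as GRIM-19, was at 192, 157, 325, 414 and 270.0 CPM at 0 hr and at 199, 171, 52.3, 108, 98.8 and 111 at 48 hr (-0.98 ± 0.19, adjusted p = 0.0018). Atp5k was at 55.1, 46.2, 112, 131 and 95.3 CPM at 0 hr and at 71.7, 68.7, 27.1, 34.7, 31.5 and 46.7 at 48 hr (-0.74 ± 0.17, adjusted p = 0.0064). Series 1, which holds the first 2 libraries at 0 hr and replicates 3 and 4 at 48 hr, was lower than series 2, which holds the last 3 at 0 hr and the first 2 at 48 hr, so that the pooled ranges overlapped. All 21 members kept their direction within series 1 (2 libraries against 2, median difference of all members -0.23) and within series 2 (2 against 3, median -0.47). As the 21 were called on these same libraries, this is no independent check. Series 2 fitted alone called 1 member, Cox7a1 (-1.94, adjusted p = 0.033), series 1 alone called 0, and the count on all series was 5 without brain 0 hr replicate 1, 9 without 0 hr replicate 4, and 7, 8 and 12 without 48 hr replicates 3, 6 and 7. The 12 neuron markers summed to 1969, 2983, 7092, 8283 and 5871 CPM at 0 hr and to 5209, 3491, 1823, 975, 1174 and 1111 at 48 hr, and 1 of 12 (Stmn2) was lower. The 18 cardiomyocyte markers summed to 267 to 561 CPM at 0 hr and 204 to 507 at 48 hr, and of 12 tested 1 (Myl2) was lower. The 6 oligodendrocyte markers summed to 866, 1309, 4102, 5822 and 4507 CPM at 0 hr and 2662, 3117, 698, 422, 462 and 373 at 48 hr, with none called. The 5 fibroblast markers summed to 477 to 1542 CPM and 432 to 4980, and Dcn rose (1.32 ± 0.37, adjusted p = 0.02). The 13 endothelial markers summed to 2587 to 4982 CPM and 3797 to 6276, with 3 higher and 1 lower of 13 tested, between Flt1 (-0.76 ± 0.22, adjusted p = 0.026) and Ecscr (2.39 ± 0.31, adjusted p = 5.1e-05). The 9 pericyte and smooth muscle markers summed to 168 to 2601 CPM and 71.2 to 1893, and the 6 astrocyte markers to 1042 to 5119 and 981 to 5482, with none of either called. Macrophage markers stood at 5 higher and 0 lower of 6 tested and neutrophil markers at 3 higher and 0 lower of 7 tested. The part of RNA from any of these cells in the falls of the members was not tested.

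**Figure D4:**
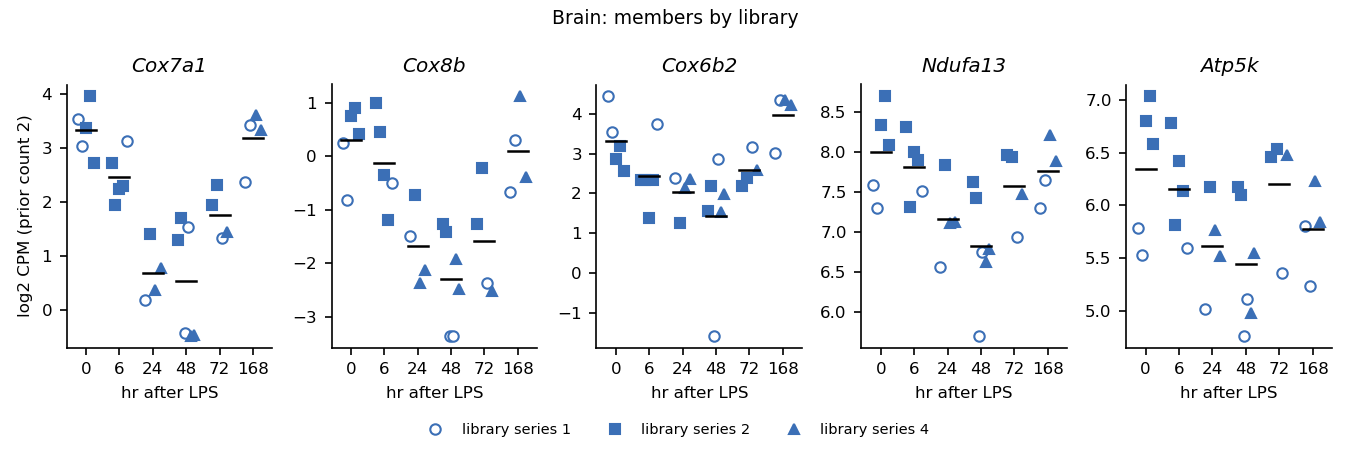
Log2 CPM (prior count 2) of Cox7a1, Cox8b, Cox6b2, Ndufa13 and Atp5k in the 28 brain libraries at 0 to 168 hr, with a point per library, its shape giving the library series, and a bar for the mean. Cox7a1 lay below all 0 hr libraries at 24 and 48 hr, and Ndufa13 and Atp5k were spread by library series at 0 hr and at 48 hr.

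In lung ECs 1 member was called after LPS. At 6 hr Ndufa5 was lower (-2.56 ± 0.77, adjusted p = 0.047), against 4.83% of all genes called, and 24 members had an unadjusted p under 0.05. It was at 77.8, 119, 356 and 0 CPM in libraries with 6.93, 8.12, 33.9 and 3.41% of reads on genes. With no lung libraries under 10%, 0 members were called at 6 hr, and without the third library, which leaves those under 10%, 30 were. The call was also lost without any 1 of 0 hr replicates 1 to 3 or of 6 hr replicates 1, 2 and 4. The subunits encoded by mitochondrial DNA, which are no members, summed to 37521, 9285, 2605 and 19137 CPM in the same 4 libraries, against 2466, 2960, 937 and 874 at 0 hr. Of 7 tested 5 rose, namely mt-Cytb of complex III (3.37 ± 0.88, adjusted p = 0.024), mt-Co1 of complex IV (3.37 ± 0.96, adjusted p = 0.036) and mt-Nd5 (3.10 ± 0.87, adjusted p = 0.034), mt-Nd1 (2.73 ± 0.74, adjusted p = 0.028) and mt-Nd2 (2.53 ± 0.75, adjusted p = 0.046) of complex I. How far this sum and the share of reads on genes bear on the members' levels at 6 hr was not tested. Whether RNA of the subunits encoded by mitochondrial DNA was bound to tagged ribosomes was not tested either. At 24, 48, 72 and 168 hr edgeR called 0 members, against 0.375, 0.598, 0.193 and 0.0117% of all genes, with 0, 1, 3 and 4 at an unadjusted p under 0.05. Muscle isoforms were high in single lung libraries. Cox6a2 was at 105, 2.53, 1.14 and 0 CPM at 6 hr, at 2.32 and 29.5 at 24 hr and at 12, 10.6, 3.64, 0.412, 1.64 and 20.1 at 48 hr. The 18 cardiomyocyte markers summed to 2317, 3260, 271 and 1096 CPM, 187 and 1540 CPM and 415, 410.0, 305, 313, 355 and 1080 CPM in the same libraries, against 185 to 332 at 0 hr, and their part in the isoform levels was not tested.

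**Figure D5:**
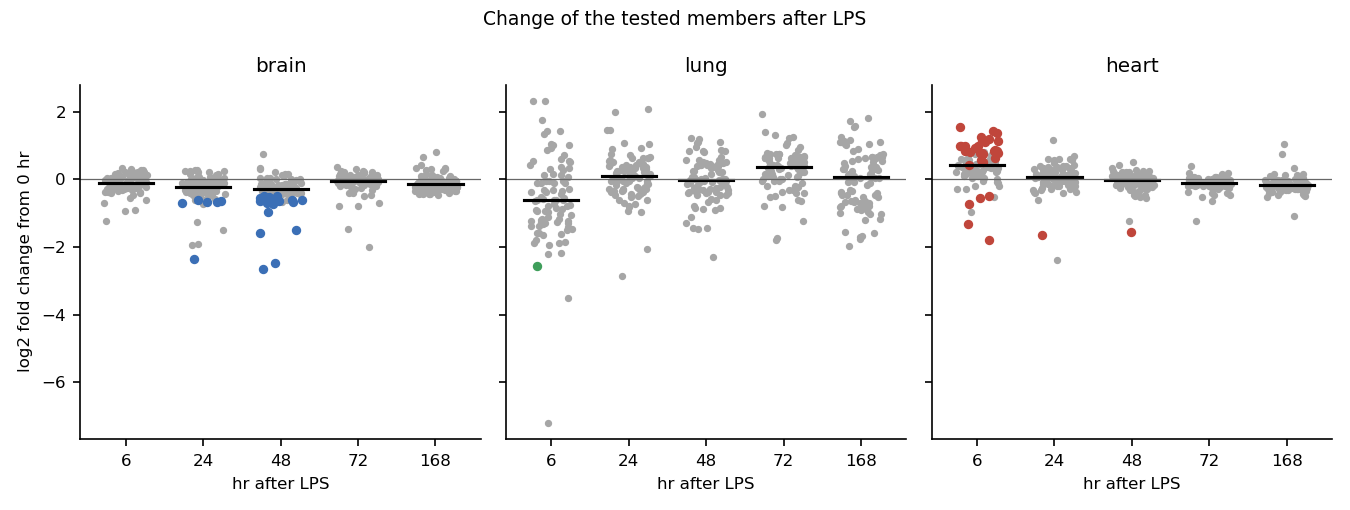
Log2 fold change from 0 hr of the 89 tested members at 6, 24, 48, 72 and 168 hr after LPS in brain, lung and heart, with a point per member, coloured where the adjusted p was under 0.05, and a bar for the median. The median was 0.41 in heart at 6 hr and -0.28 in brain at 48 hr, and 1 member was called in lung.

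The LPS responses of the organs were compared by an interaction test. Between heart and brain edgeR called 0 members at 6, 24 and 48 hr (7, 3 and 2 at an unadjusted p under 0.05), against 0.636, 0.327 and 0.463% of all genes, so that the 31 calls in heart and 0 in brain at 6 hr do not show a difference between these organs. Between lung and brain 12 members were called at 6 hr, 11 of them lower in lung against 7.54% of all genes lower, led by Ndufc2 (-2.34 ± 0.56, adjusted p = 0.003), and Cox7a1 was higher (3.51 ± 1.02, adjusted p = 0.015). At 24 hr Cox7a1 (4.50 ± 1.10, adjusted p = 0.0071), Cox8b (4.50 ± 1.34, adjusted p = 0.037) and Atp5s, a coupling factor of ATP synthase (2.21 ± 0.63, adjusted p = 0.027), were called, against 3.85% of all genes. At 48 hr Cox6a2 (3.45 ± 0.98, adjusted p = 0.031) and Atp5s (1.85 ± 0.52, adjusted p = 0.029) were, against 3.54%. The calls at 24 and 48 hr were lost with limma-voom, and those of Cox8b and Cox6a2 also with no library series and with the replicate block. Lung had 2 libraries at 24 hr, whose cardiomyocyte markers summed to 187 and 1540 CPM. At 48 hr the sums were 305 to 1080 CPM, against 185 to 332 at 0 hr. The part of heart muscle RNA in these differences was not tested. Between lung and heart 34 members were called at 6 hr, all lower in lung, against 11.2% of all genes lower, and edgeR called 0 at 24 and 48 hr (5 and 3 at an unadjusted p under 0.05), against 1.67% and 1.13%. With no lung libraries under 10% of reads on genes, the count at 6 hr was 0 between lung and brain and 1 between lung and heart, and that 1 was not among the 34.

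Genes of the same pathway outside the naming rule were read from lists. Of 33 other assembly factors tested, 9 (27.3%) rose and 3 (9.09%) fell in heart at 6 hr, against 22.4% and 20.3% of all genes, with Sco2, a copper chaperone of complex IV, at 2.18 ± 0.45, adjusted p = 7.8e-04 and Surf1 at -0.80 ± 0.27, adjusted p = 0.022. In brain at 48 hr 1 rose (Foxred1, 0.53 ± 0.15, adjusted p = 0.021) and 6 (18.2%) fell, against 6.12% of all genes lower, with Fmc1 at -1.03 ± 0.23, adjusted p = 0.0057. Of 12 genes for cytochrome c and partners of complexes II and III, 3 (25%) rose in heart at 6 hr, led by cytochrome c itself, Cycs (1.51 ± 0.39, adjusted p = 0.0042), and 3 (25%) fell in brain at 48 hr, led by Sdhaf4 (-0.81 ± 0.24, adjusted p = 0.026). Of 17 genes of the tricarboxylic acid cycle, 12 were higher and none lower in heart at baseline (27.7% and 30.5% of all genes), 8 higher and 2 lower in brain (35.1% and 23.4%), and 1 higher and 12 lower in lung (28% and 34.4%). In heart at 6 hr 4 of them (23.5%) rose and 3 (17.6%) fell, close to the shares of all genes, between Dlst (0.95 ± 0.22, adjusted p = 0.0023) and Suclg1 (-1.07 ± 0.25, adjusted p = 0.0021). In brain at 48 hr 1 of 17 was called (Dlst, 0.49 ± 0.17, adjusted p = 0.05, just under the threshold). The counts of these lists were not run on the libraries with at least 50% of reads on genes.

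Of 19 regulators of mitochondrial biogenesis, 3 (15.8%) rose in heart at 6 hr and 1 (5.26%) fell, both below the shares of all genes (22.4% and 20.3%). Pprc1, a coactivator related to PGC-1, gave 2.74 ± 0.47, adjusted p = 1.5e-04, the mitochondrial helicase Twnk 1.26 ± 0.27, adjusted p = 0.0012, Gabpb1 0.94 ± 0.20, adjusted p = 0.0011 and Yy1 -0.64 ± 0.17, adjusted p = 0.0047. At 24 hr 4 (21.1%) fell in heart and none rose, where 16.2% of all genes were called in either direction. These were Ppargc1a, which encodes PGC-1alpha (-1.69 ± 0.35, adjusted p = 0.0041), the receptors Esrrg (-2.31 ± 0.48, adjusted p = 0.0038) and Esrrb (-2.06 ± 0.49, adjusted p = 0.0086), and the polymerase Polg (-0.99 ± 0.32, adjusted p = 0.04). In brain Pprc1 rose at 6 hr (1.06 ± 0.27, adjusted p = 0.016) and 24 hr (1.17 ± 0.29, adjusted p = 0.012). At 48 hr Pprc1 (0.90 ± 0.27, adjusted p = 0.026) and Nrf1 (0.51 ± 0.15, adjusted p = 0.025) rose and Esrra fell (-0.56 ± 0.17, adjusted p = 0.026). No regulator was called in lung after LPS or at the other times. At baseline brain had 4 higher and 6 lower of 19 tested, against 35.1% and 23.4% of all genes. They ran from Twnk (-1.45 ± 0.33, adjusted p = 0.0016) to Esrrg (3.49 ± 0.37, adjusted p = 8.7e-07). Ppargc1a, Esrrb and Ssbp1 were also higher, and Polg, Nrf1, Gabpb1, Pprc1 and Yy1 also lower. Lung had 4 higher and 8 lower of 19 tested, against 28% and 34.4% of all genes. They ran from Esrrb (-4.43 ± 0.84, adjusted p = 3.7e-04) to Twnk (2.09 ± 0.31, adjusted p = 4.4e-05). Polg, Pprc1 and Nrf1 were also higher, and Esrrg, Ppara, Ppargc1a, Gabpa, Tfam, Esrra and Yy1 also lower. Heart had 7 higher and none lower of 19 tested, against 27.7% and 30.5% of all genes. They were led by Esrrb (2.99 ± 0.59, adjusted p = 5.5e-04), with Gabpa, Ppara, Yy1, Tfam, Gabpb1 and Nrf1. By the interaction test the response of Gabpb1 was lower in lung than in brain at 6, 24 and 48 hr (log2 differences from -2.04 to -1.46), those of Gabpb1, Pprc1, Esrra and Twnk were lower in lung than in heart at 6 hr (-2.54 to -1.32), and that of Ppargc1a was higher in lung than in heart at 24 hr (2.81 ± 0.78, adjusted p = 0.039). Of 13 subunits encoded by mitochondrial DNA 7 were tested in each fit. At baseline mt-Co1 was higher in heart (2.88 ± 0.45, adjusted p = 7.8e-05), and mt-Co1 (-3.10 ± 0.60, adjusted p = 4.3e-04), mt-Nd1 (-1.51 ± 0.55, adjusted p = 0.027) and mt-Cytb (4-fold, adjusted p = 0.012) were lower in lung. After LPS mt-Co1 fell in heart at 6 hr (-1.30 ± 0.32, adjusted p = 0.0029), and besides the 5 that rose in lung at 6 hr no other was called. The same 5 were called in the interaction tests at 6 hr, with log2 differences of 2.39 to 3.53 for lung minus brain and of 2.90 to 5.17 for lung minus heart. At 0 hr the 13 genes summed to 1441 and 1008 CPM in the brain libraries of series 1, to 14523, 9722 and 16043 in those of series 2, and to 5884 to 12383 in heart. Whether RNA of these genes, which is not made in the nucleus, was bound to tagged ribosomes was not tested. Of 13 hypoxia-responsive genes tested in heart at 6 hr, 7 (53.8%) rose and 1 (7.69%) fell, against 22.4% and 20.3% of all genes, between the glucose transporter Slc2a1 (1.74 ± 0.38, adjusted p = 0.0012) and Ankrd37 (-1.09 ± 0.31, adjusted p = 0.0081). In brain at 48 hr 1 of 14 was called (Adm, 2.13 ± 0.36, adjusted p = 6.2e-04).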

How the data were processed

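Ribosome-bound mRNA was sequenced from whole organs of RiboTagEC mice. Per the labels and the study's methods, the authors aligned reads with STAR 2.4.2 to mm10 and deposited raw read counts per Ensembl gene from HTSeq 0.6.1, with a file per sequencing run. The annotation release and strand setting are not given in the sources used here. HTSeq leaves out reads that fit several genes or places.

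Here the 217 runs were summed into 98 libraries, since runs of a library differed by a chi-square per gene of at most 1.61 and libraries of a group by at least 15.1. The 18 libraries with under 3% of reads on genes (1.73 to 2.75%, all of library series 3) were left out, and 80 were used. Reads on no gene (52.8% over the libraries used) stayed out of library sizes. Library series was read from file names. Counts were filtered with filterByExpr, scaled by TMM and tested with the quasi-likelihood test of edgeR 4.0.16 (R 4.3.3) with library series as covariate, at an adjusted p under 0.05 (Benjamini-Hochberg over all genes tested). At 0 hr each organ was set against the average of the others, each time with 0 hr within an organ, and responses between organs by interaction terms. The SE of a log2 fold change was its size divided by the square root of the F statistic of the test. Log2 CPM used a prior count of 2. Per-length levels used the APPRIS principal transcript (360 to 4715 bases), and promoters came from RefSeq. Scripts were tested on simulated data.

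Named were the isoform members, the core subunits, and in each comparison the 3 members with the largest and the 3 with the lowest change past the threshold, among those whose log2 CPM averaged 3 or more in that fit. Other members named were chosen after their values were seen. From pathway lists the ends of the called genes are given for heart at 6 hr and brain at 48 hr, and every called biogenesis or mitochondrially encoded gene is named. The members and lists were chosen with earlier results of these data known. Alternatives were DESeq2 1.42.0, limma-voom (limma 3.58.1), RLE scaling, no filter, no library series, all 98 libraries, replicate and mouse blocks, a prior count of 0.5, each library left out, and subsets chosen after the data were seen. Same-numbered libraries did not deviate together throughout (19 of 70 pairs had a correlation over 0.1), so replicate numbers within an organ were not taken as pairs. Between organs, libraries can share a mouse by file name, and a mouse block was run at baseline.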

Additional observations from a re-analysis of the deposited data

Results flagged for a closer look

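Of 170 groups of 4 to 10 libraries examined for a single library far from the others, 9 were marked, and chance marks about 1 in 20 of such groups. Among lung libraries the log2 CPM of Ndufa5 was lowest, at 6.90, in 0 hr replicate 4 and, at 7.28, in 48 hr replicate 4. Ndufaf8 was lowest at 3.96 and 3.48 in the same libraries and at 4.59 in 168 hr replicate 2. Lung 0 hr replicate 4 and 168 hr replicate 2 had 56.2 and 57.1% of reads on genes, and 48 hr replicate 4 had 44.4%. Ndufa13 was lowest in lung 168 hr replicate 5 at 6.98, and Atp5b in lung 72 hr replicate 1 at 5.88. Cox4i2 was highest in lung 6 hr replicate 3 at 4.11, the library of that group with 33.9% of reads on genes. In brain, 72 hr replicate 3, the only library of series 1 in its group, had the lowest median level of the members at 6.31. The part of the share of reads on genes and of library series in these values was not tested.

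By the interaction test, the LPS response of lung differed from that of brain at 6 hr in 12 members, among them Ndufc2 (-2.34), Ndufa5 (-2.29), Ndufb3 (-2.07), Cox6b1 (-1.66) and Cox7a1 (3.51), on the log2 scale. At 24 hr it differed in 3, among them Cox7a1 (4.50) and Cox8b (4.50), and at 48 hr in 2, among them Cox6a2 (3.45). These calls at 24 and 48 hr were lost with limma-voom. Lung and heart differed at 6 hr in 34 members, all lower in lung, among them Ndufs5 (-7.44), Ndufa5 (-3.76), Ndufaf8 (-3.07), Cox4i1 (-2.24), Cox6b1 (-2.11), Cox5a (-1.95) and Cox6a1 (-1.27). Ndufs5 varied widely between libraries already at 0 hr (42.9 ± 60.5 CPM per kb in lung and 11.5 ± 13 in heart). Its call was lost with limma-voom and with the replicate block. At 6 hr, 3 of the 4 lung libraries had under 10% of reads on genes, and none of the 12 or of the 34 members stayed called without lung libraries under 10%.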

How the results depend on the processing

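Counts of called members are given for the settings under which they moved by over 1.5 times, and the cause was not tested. At baseline, with at least 50% of reads on genes, brain had 20, lung 14 and heart 26, and with all 98 libraries heart had 26. DESeq2 gave 1 at brain 6 hr, 2 at brain 72 hr, 7 at lung 6 hr, 3 at heart 24 hr, 5 for lung minus brain at 24 hr and 1 for lung minus heart at 24 hr. Limma-voom gave 1 at brain 6 hr, 3 at brain 24 hr, and 0 at lung 6 hr, at heart 48 hr and for lung minus brain at 24 and 48 hr. RLE scaling gave 1 at brain 72 hr. It moved the median log2 fold change of all genes at lung 6 hr from -0.42 to -0.11 and that of the members from -0.61 to -0.15. With no filter on low counts there were 13 at brain 48 hr, 2 at brain 72 hr, 3 at lung 6 hr, 2 at heart 24 hr, 1 for heart minus brain and 3 for lung minus heart at 24 hr. With no library series there were 10 at brain 48 hr, 2 at lung 6 hr, 5 at heart 24 hr, and 1 and 0 for lung minus brain at 24 and 48 hr. All 98 libraries gave 1 at brain 24 hr, 9 at brain 48 hr, 0 at lung 6 hr and 3 for lung minus brain at 6 hr. Series 2 alone gave 1 at brain 6, 24 and 48 hr and 0 at heart 48 hr, and series 1 alone gave 0 at brain 24 and 48 hr and at heart 6, 24 and 48 hr. With at least 50% of reads on genes heart 6 hr had 15. Without lung libraries under 10% there were 0 at lung 6 hr, 1 for heart minus brain at 6 hr, 0 and 5 for lung minus brain at 6 and 24 hr, and 1 and 2 for lung minus heart at 6 and 24 hr.

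With the replicate block the counts that moved were 2 at brain 24 hr, 12 at brain 48 hr, 1 at brain 72 hr, 2 at lung 6 hr, 0 at heart 48 hr, and 1 and 0 for lung minus brain at 24 and 48 hr. At heart 6 hr the block gave 22. Within an organ, libraries of different times share only a number, with correlations of same-numbered pairs from -0.66 to 0.75. Between organs, libraries at 0 hr that share a mouse by file name had correlations from -0.18 to 0.22. A mouse block gave 52 calls in brain, 61 in lung and 54 in heart, among them 38 of the 38, 61 of the 63 and 39 of the 41 reported, and it was not run for the interaction tests.

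Leaving out single libraries gave 0 to 3 calls at brain 6 hr, 1 to 8 at brain 24 hr, 5 to 24 at brain 48 hr, 0 to 1 at brain 72 hr, 0 to 30 at lung 6 hr, 15 to 48 at heart 6 hr, 0 to 2 at heart 24 hr and 0 to 1 at heart 48 hr. Baseline counts ran from 30 to 56 in brain, 57 to 66 in lung and 35 to 58 in heart.

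With at least 50% of reads on genes, the lung baseline differences of Cox7a2 (0.05), Cox7a2l (-0.07) and Cox8a (0.43) reversed. With series 1 alone the heart 6 hr changes of Ndufa5 (-0.28), Cox5a (-0.26), Cox4i1 (-0.32) and Cox6a2 (-0.06) reversed. Of the other log2 fold changes of named members, 646 kept their direction and side of the threshold and 133 fell short of it, and 822 and 108 did so with single libraries left out. The alternative without library series 3 is the same as the analysis reported, since the 3% rule leaves out just those libraries. Lung depth down to 284457 counts limits what can be called there, and levels near 1 CPM, such as Cox8b in brain, rest on few counts.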

Other observations

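Cox4i2, Cox6b2 and Cox8a had organ and time patterns of their own. Over the means of the 18 organ and time groups, Cox4i2 was most like Neurl1b (Pearson r = 0.932) and Meis1 (0.926), Cox6b2 most like Col4a6 (0.971) and Fzd2 (0.961), and Cox8a most like Tomm20 (0.963), a receptor of the mitochondrial import machinery, among 13356 genes searched. The groups share libraries, depth and organ, so these are descriptions without a test. Hypoxia-responsive genes in heart ECs at 24 hr stood at 4 higher and 1 lower of 13 tested, where 16.2% of all genes were called in either direction, with the glucose transporter Slc2a1 at 2.27 ± 0.41 (SE, adjusted p = 0.0018), at a time when Cox4i2 was the only respiratory chain member called and was lower.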
